A study of Mus musculus with 12 samples.

Results

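The genes described here encode the subunits of the transcription factor NF-kB and the proteins that hold it in check. They were taken as the 10 mouse genes Nfkb1, Nfkb2, Rel, Rela, Relb, Nfkbia, Nfkbib, Nfkbie, Tnfaip3 and Birc3. Of these, 9 had a probe set that named 1 gene in the annotation of the array, each had 1 such probe set, and all 9 passed the filter on dim genes, among 18652 genes tested of 22180 with a probe set. Nfkb1 was not analysed here. The MP cells model Group 3 medulloblastoma, a childhood tumour of the cerebellum, in the mouse, with MYC as the driver. They were taken from tumours in cerebella of immunodeficient NSG mice and cultured as single cells. Cultures of 3 tumours (MP525, MP567 and MP570) received 25 nM LBH589 (panobinostat, an inhibitor of histone deacetylases) for 6 h or 12 h, against 0.00025% DMSO, the solvent, for 6 h or 12 h. Each tumour gave 1 array in each of these 4 groups, 12 arrays in all. The study asked by what mechanism such inhibitors are toxic to these cells. Nothing in the labels says that arrays of 1 tumour came from separate animals. The 3 arrays of a group came from 3 tumours, so p-values without regard to the tumour measure the spread between cultures of different tumours. Those with the tumour as a block measure the spread left after each tumour's own level is taken out.

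NF-kB is a family of dimers built from RelA (p65), c-Rel, RelB, p50 and p52. The subunits p50 and p52 are cut from the larger proteins of Nfkb1 and Nfkb2. In resting cells the dimers are held in the cytoplasm by inhibitors of the IkB family, and a kinase complex that marks IkB for destruction releases them to the nucleus. Several of the genes that NF-kB then switches on encode its own inhibitors, so the pathway is known for negative feedback. RelA is itself acetylated, and histone deacetylases are known to remove those marks.

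Upstream sequences are shown for the 5 genes that hold a match to the NF-kB consensus there, since feedback of the pathway on its own genes is known to run through such sites. The 250 bases before each start in a set of RefSeq promoters (build GRCm38.p6) were searched on both strands for the NF-kB consensus, known as the kappaB site. Overlapping matches were counted by position. A match was found for 5 of the 8 members with a window, against 4.48% of the 26734 genes in that set. It was found in 7 of the 11 windows of the members, against 3.92% of 32536 distinct windows. The members were chosen in part as genes known for such feedback, so these shares are a description and not a test. Relb and Nfkb1 were not searched. Rela, Nfkbib and Birc3 had no match in their windows. The RefSeq bounds of Nfkb2, Rela and Birc3 reach further upstream than the starts in that set. The 250 bases before those bounds were thus not searched in full. Capitals mark the matches, and every sequence reads 5′ to 3′ in the direction of the gene. The Nfkb2 window is that of the most upstream of 3 listed starts (chr19:46304487-46304736, plus strand), with matches beginning 39, 38 and 11 bases before the start, of which the pair at 39 and 38 overlap. Rel (chr11:23770970-23771219, minus strand) had a pair of overlapping matches at 92 and 91 bases. Nfkbie (chr17:45555450-45555699, plus strand) had 1 match at 106 bases, and Nfkbia (chr12:55492648-55492897, minus strand) 1 match at 29 bases. Tnfaip3 had matches at 125 and 12 bases in the window of the more upstream of its listed starts (chr10:19015411-19015660, minus strand), and none in that of the other.
Nfkb2: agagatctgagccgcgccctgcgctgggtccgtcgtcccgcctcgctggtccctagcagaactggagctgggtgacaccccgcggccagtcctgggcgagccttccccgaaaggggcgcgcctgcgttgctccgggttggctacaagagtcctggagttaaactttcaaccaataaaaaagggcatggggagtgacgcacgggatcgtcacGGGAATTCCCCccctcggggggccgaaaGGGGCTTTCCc
Rel: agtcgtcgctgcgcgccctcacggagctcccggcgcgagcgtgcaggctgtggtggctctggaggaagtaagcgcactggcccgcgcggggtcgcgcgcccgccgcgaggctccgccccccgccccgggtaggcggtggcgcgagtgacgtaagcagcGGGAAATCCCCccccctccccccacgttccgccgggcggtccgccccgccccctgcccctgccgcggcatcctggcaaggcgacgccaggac
Nfkbie: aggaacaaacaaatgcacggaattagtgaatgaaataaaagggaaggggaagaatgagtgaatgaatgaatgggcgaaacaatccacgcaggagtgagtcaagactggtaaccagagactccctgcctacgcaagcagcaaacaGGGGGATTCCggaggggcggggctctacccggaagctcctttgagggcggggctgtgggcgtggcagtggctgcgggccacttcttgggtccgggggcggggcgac
Nfkbia: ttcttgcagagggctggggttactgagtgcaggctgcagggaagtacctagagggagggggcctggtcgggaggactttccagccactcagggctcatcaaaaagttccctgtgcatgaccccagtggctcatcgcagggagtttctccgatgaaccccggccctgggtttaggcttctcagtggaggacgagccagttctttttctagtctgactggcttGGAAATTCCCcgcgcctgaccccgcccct
Tnfaip3: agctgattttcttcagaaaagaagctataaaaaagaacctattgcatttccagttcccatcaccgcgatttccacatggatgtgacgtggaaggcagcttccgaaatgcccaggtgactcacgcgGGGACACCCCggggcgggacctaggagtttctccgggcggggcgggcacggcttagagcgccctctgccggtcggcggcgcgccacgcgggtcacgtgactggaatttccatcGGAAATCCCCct
A match describes these letters only, since no binding was measured.

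The 12 arrays had medians of 7.10 to 7.21 (log2 values), and any 2 of them correlated at 0.965 to 0.991. All values below are log2 expression values as the authors deposited them, and a difference of 1 is a doubling of signal. Each of the 9 genes lay above the 25th percentile of the array on all 12 arrays, and 8 lay above the median on all 12, while Birc3 did so on 6. Of the markers fixed for Group 3 tumours and progenitors, Myc, Npr3, Prom1 and Nes lay above the array median on all 12 arrays, whereas the photoreceptor genes Nrl and Crx and the retinal gene Impg2 did so on none. Some of these tumour-cell markers moved with LBH589. Npr3, a receptor that clears natriuretic peptides, fell by 1.63 at 6 h and by 1.61 at 12 h (limma adjusted p = 0.00165 and 0.00146, and 0.0613 at 6 h without MP525), and Prom1, which encodes the membrane protein CD133, fell by 0.98 at 12 h (0.00295). Of the 10 markers, 0 rose and 1 fell at 6 h and 0 rose and 2 fell at 12 h (1 and 3, and 1 and 2, with the tumour as a block). The marker that rose in the blocked fit was Nes, by 0.77 after 6 h (limma adjusted p = 0.0322) and by 1.19 after 12 h (0.0022). Nes was not called when the block was left out (0.437 and 0.184). Called in either direction were 10% and 20% of the list, against 15.8% and 18.2% of all genes tested. With the block these shares were 40% and 30%, against 34% and 37.1%. Their signals summed on the linear scale were 2547 to 3351 at 6 h and 2778 to 4048 at 12 h with LBH589, against 3956 to 6370 and 3984 to 6032 with DMSO. In DMSO Npr3 was the brightest of the 10, at 11.2 at each time, and so weighed most in that sum. The mean log2 value of the 10 markers ranged from 7.66 to 7.97 at 6 h and 7.76 to 8.13 at 12 h with LBH589. With DMSO it ranged from 7.81 to 8.45 and from 7.79 to 8.44, so the groups overlapped. The part of these marker changes in the results below was not tested.

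After LBH589, Nfkb2 and Nfkbie rose more than 2-fold at both times, Rel and Nfkbib rose less and Rela fell, the last 3 by a test that compares cultures within a tumour. Nfkbia, Tnfaip3, Birc3 and Relb did not pass the test at either time in either fit. Without regard to the tumour, 2 of the 9 genes were called higher and 0 lower at 6 h (limma, adjusted p under 0.05), where 15.8% of all genes tested were called (8.49% higher, 7.31% lower). The result at 12 h was again 2 and 0, where 18.2% of all genes were called (9.13% higher, 9.07% lower). With the tumour as a block, 4 were higher and 1 was lower at each time, against 34% of all genes called at 6 h (18% higher, 16% lower) and 37.1% at 12 h (18.6% higher, 18.5% lower). The median log2 fold change of the 9 genes was 0.08 at 6 h and 0.24 at 12 h, and that of all genes tested was -0.02 and 0.01. The LBH589 and DMSO arrays did not overlap for 5 of the 9 genes at 6 h and for 4 at 12 h, against 32.9% and 32% of all genes tested.

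**Figure D1:**
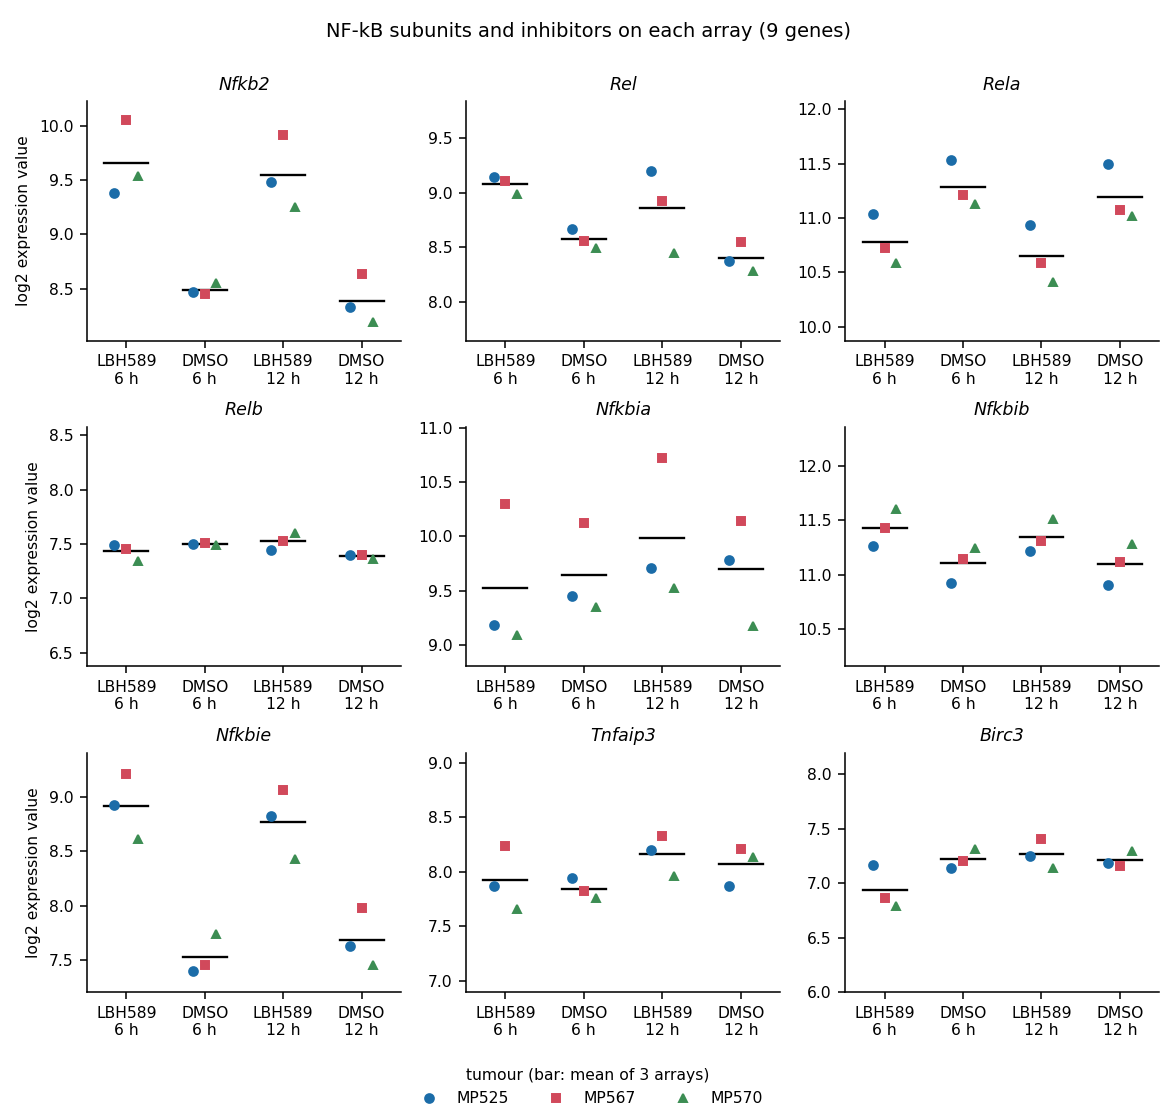
Log2 expression values (vertical axis) of the 9 genes on each of the 12 arrays, by treatment and time, with a symbol for each tumour and a bar for the mean of 3 arrays; every panel spans the same range of log2 units. Nfkb2 and Nfkbie were higher on all LBH589 arrays than on all DMSO arrays, Rela was lower within each tumour, and Nfkbia was highest in MP567 in all 4 groups.

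Nfkb2 encodes p100, an inhibitor of RelB that is cut to the subunit p52 when the non-canonical branch of the pathway is active. It stood at 9.38 in MP525, 10.05 in MP567 and 9.54 in MP570 after 6 h of LBH589, against 8.47, 8.45 and 8.55 in DMSO. After 12 h the LBH589 values of MP525, MP567 and MP570 were 9.48, 9.92 and 9.25, against 8.33, 8.63 and 8.19 in DMSO. Every LBH589 array was above every DMSO array, and MP567 was the highest of the drug-treated cultures at both times. The log2 fold changes were 1.17 ± 0.20 at 6 h and 1.16 ± 0.20 at 12 h (± SE), with limma adjusted p of 0.00284 and 0.00241. They correspond to 2.24-fold at each time. Leaving out any single array or tumour kept both calls (highest adjusted p 0.0469 at 6 h and 0.048 at 12 h).

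Rel encodes c-Rel, a subunit that activates transcription and is best known from lymphocytes. At 6 h it was 9.15, 9.11 and 8.99 in MP525, MP567 and MP570 with LBH589, and 8.67, 8.56 and 8.49 with DMSO, with no overlap between the groups. At 12 h it was 9.20, 8.93 and 8.44 with LBH589 and 8.38, 8.55 and 8.29 with DMSO, and here the LBH589 value of MP570 lay below the DMSO value of MP567. The differences of 0.51 ± 0.17 and 0.45 ± 0.17 missed the threshold without the block (limma adjusted p = 0.0605 and 0.0849). With the tumour as a block they passed it (0.00429 and 0.00824), and Rel was higher with LBH589 in 3 of 3 tumours at each time. Without the block Rel was called at both times when arrays were centred on reference genes (0.0398 and 0.0406), or when the LBH589 12 h array of MP570 was left out (0.0167 and 0.00985). That centring also raised the median log2 fold change of all genes, from -0.02 to 0.03 at 6 h and from 0.01 to 0.09 at 12 h. At 6 h Rel was also called without the LBH589 12 h array of MP525 (0.0313), and with the filter on dim genes at the 50th percentile (0.0498). The blocked 12 h call was lost without MP525 (difference 0.27, adjusted p = 0.157), and without that tumour's DMSO or LBH589 array at 12 h (0.0562 and 0.0542).

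Rela encodes p65, the main activating subunit of the canonical branch, and was the one of the 9 genes called lower, with the tumour as a block. After 6 h it was 11.04, 10.72 and 10.58 in MP525, MP567 and MP570 with LBH589, against 11.53, 11.21 and 11.13 with DMSO. After 12 h it was 10.94, 10.59 and 10.42 with LBH589, against 11.49, 11.07 and 11.02 with DMSO. Each tumour kept its rank in all 4 groups, with MP525 highest and MP570 lowest, and the groups did not overlap at either time. Within a tumour the differences ranged from -0.60 to -0.48. The log2 fold changes were -0.51 ± 0.18 and -0.55 ± 0.18 without the block (limma adjusted p = 0.0824 and 0.0567), and -0.51 ± 0.06 and -0.55 ± 0.06 with it (3.8e-05 and 1.9e-05). In linear terms Rela stood at 0.703 of the DMSO level at 6 h and 0.684 of it at 12 h. Without the block, Rela was called at 12 h when the LBH589 12 h array of MP525 (0.0311) or all of MP525 (0.0396) was left out. The same 12 h call appeared with arrays centred on their medians (0.0367) and with the filter on dim genes at the 50th percentile (0.0457). With the block, no omission of an array or a tumour ended these calls (highest adjusted p 0.00401 and 0.00276).

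Relb encodes the partner of p52 in the non-canonical branch. It lay between 7.35 and 7.60 on the LBH589 arrays and between 7.36 and 7.50 on the DMSO arrays, the narrowest range of the 9 genes. Its log2 fold changes were -0.07 (95% interval -0.24 to 0.11) at 6 h and 0.14 (-0.04 to 0.31) at 12 h, with limma adjusted p of 0.669 and 0.288. At 12 h the groups did not overlap, the LBH589 values of 7.44, 7.52 and 7.60 lying above DMSO values of 7.40, 7.40 and 7.36.

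Nfkbie encodes IkB epsilon, an inhibitor that is itself a target of NF-kB. It had the largest 6 h rise of the 9 genes, to 8.92, 9.21 and 8.61 in MP525, MP567 and MP570 with LBH589, against 7.40, 7.45 and 7.74 with DMSO. At 12 h it was 8.82, 9.06 and 8.42 with LBH589 and 7.63, 7.98 and 7.46 with DMSO. No LBH589 array overlapped a DMSO array. The log2 fold changes of 1.38 ± 0.20 and 1.08 ± 0.20 (limma adjusted p = 0.00104 and 0.00347) correspond to 2.61-fold and 2.12-fold. These calls were lost without MP525, where the differences were 1.31 (adjusted p = 0.0552) and 1.03 (0.0831), and were kept there with the tumour as a block.

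Nfkbib encodes IkB beta, an inhibitor that is not known for rapid feedback. At 6 h it was 11.26, 11.43 and 11.61 in MP525, MP567 and MP570 with LBH589, and 10.93, 11.14 and 11.25 with DMSO. At 12 h it was 11.21, 11.32 and 11.51 with LBH589, and 10.91, 11.12 and 11.28 with DMSO. The order of tumours was the same in all 4 groups, with MP570 highest, the reverse of the order of Rela. The differences of 0.33 ± 0.14 and 0.24 ± 0.14 did not pass the test without the block (limma adjusted p = 0.136 and 0.256) and passed it with the block (0.000849 and 0.00568). The blocked 12 h call was lost without MP525 (0.0686) or MP570 (0.0619) as a whole.

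Nfkbia encodes IkB alpha, the inhibitor whose resynthesis is the classical feedback of the pathway. Its values were 9.18, 10.30 and 9.09 in MP525, MP567 and MP570 after 6 h of LBH589, against 9.46, 10.12 and 9.35 in DMSO. After 12 h they were 9.71, 10.72 and 9.52 with LBH589, against 9.78, 10.14 and 9.18 with DMSO. The groups overlapped at both times, and the spread between tumours was wider than any difference between treatments. At 6 h it was higher with LBH589 in 1 of 3 tumours (difference -0.12, limma adjusted p = 0.899), and at 12 h in 2 of 3 (0.28, 0.694). The 95% intervals were -0.98 to 0.74 and -0.58 to 1.14 without the block. With the block they were -0.39 to 0.16 and 0.01 to 0.56 (adjusted p = 0.548 and 0.102). At 12 h a blocked call appeared without MP525 as a whole or without its DMSO 12 h array, and with arrays centred on reference genes. Such centring also raised the median log2 fold change of all genes at 12 h, from 0.01 to 0.09.

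Tnfaip3 encodes A20, a ubiquitin-editing enzyme that shuts the pathway off, and Birc3 encodes cIAP2, a ubiquitin ligase that is both a target and a regulator of NF-kB. Tnfaip3 was 7.66 to 8.23 at 6 h and 7.96 to 8.33 at 12 h with LBH589, and 7.76 to 7.95 and 7.87 to 8.21 with DMSO. Its log2 fold changes of 0.08 (95% interval -0.26 to 0.42) and 0.09 (-0.25 to 0.43) had limma adjusted p of 0.816 and 0.761. Birc3 was 7.17, 6.86 and 6.79 in MP525, MP567 and MP570 with LBH589 at 6 h, against 7.14, 7.21 and 7.32 with DMSO, so it was lower in 2 of 3 tumours. Its difference of -0.28 (95% interval -0.53 to -0.03) did not pass the adjusted test (limma adjusted p = 0.122, and 0.0805 with the block). Without the LBH589 6 h array of MP525 it was called lower (adjusted p = 0.0437 with no block), and with the block it was called lower without that array or without MP525 as a whole. At 12 h the difference was 0.05 (-0.20 to 0.30, adjusted p = 0.818).

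**Figure D2:**
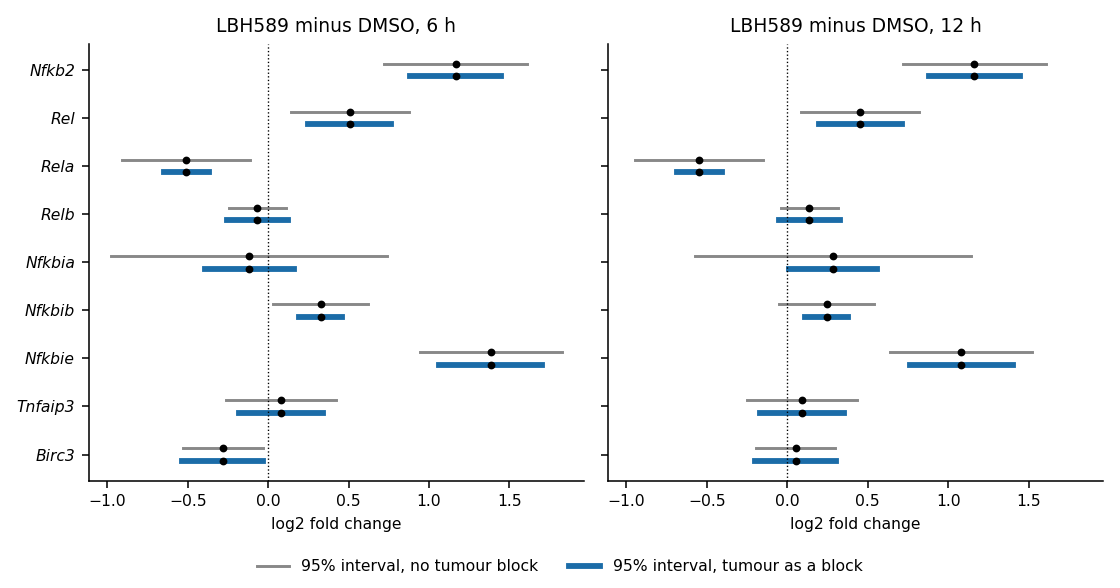
Log2 fold changes of LBH589 against DMSO (horizontal axis) for the 9 genes at 6 h and 12 h; points are estimates, grey lines their 95% intervals without the tumour and blue lines those with the tumour as a block. Nfkb2 (1.17 and 1.16) and Nfkbie (1.38 and 1.08) lie furthest to the right, Rela (-0.51 and -0.55) lies to the left, and the interval of Nfkbia narrows most when the tumour is taken into account.

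The time of treatment made no called difference to any of the 9 genes. The LBH589 effect at 12 h minus that at 6 h was called for 0 genes in either limma fit (lowest unadjusted p 0.0596, and 0.0443 with the block, so 0 and 1 of the 9 were under 0.05, where 2.63% and 9.27% of all genes were). Over all genes tested, 0% and 0.0107% were called. The differences between the effects were -0.30 for Nfkbie, 0.00 for Nfkb2 and 0.40 for Nfkbia. Between 12 h and 6 h in LBH589, 0 of 9 were called, against 0% of all genes, and 1.99% with the block (0.724% higher, 1.27% lower). No gene of the 9 had groups that did not overlap, against 12.3% of all genes. The unadjusted p was under 0.05 for 1 gene, and for 2 with the block, where 7.59% and 18.4% of all genes were. In LBH589 Birc3 was 0.33 higher at 12 h (limma adjusted p = 0.614), and Nfkbia was 0.46 higher (0.819, and 0.0785 with the block). Between 12 h and 6 h in DMSO, 0 were called, against 0.0214% of all genes, and 0.311% with the block (0.22% higher, 0.0911% lower), and 0 had an unadjusted p under 0.05 in either limma fit. Relb alone had DMSO groups that did not overlap, lower at 12 h, against 6.66% of all genes.

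The tumours differed in the level of 4 of the 9 genes (limma F test with treatment and time in the fit, adjusted p under 0.05), where 37.4% of all genes tested were called. Nfkbia averaged 9.53 in MP525, 10.32 in MP567 and 9.29 in MP570 over 4 arrays each, a span of 1.03 (adjusted p = 2.2e-05). Rela averaged 11.25, 10.90 and 10.79 in the same order (6.6e-05), and Nfkbib 11.08, 11.25 and 11.41 (0.000725). Nfkb2 averaged 8.92, 9.26 and 8.88 (0.0274), a call that was lost on leaving out, 1 at a time, the DMSO 12 h, LBH589 6 h or LBH589 12 h array of MP567 or of MP570. MP567 thus held the highest mean of Nfkbia and Nfkb2, and of Nfkbie and Tnfaip3 as well, although these did not pass the test (0.089 and 0.134). Rel (0.0789), Relb (0.974) and Birc3 (0.938) did not pass it either. Each tumour is 1 tumour, so the test compares these 3 and not tumours in general.

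The size of the LBH589 effect was not shown to differ between tumours for any of the 9 genes (limma F test of the effect averaged over both times, lowest adjusted p 0.37), where 1.06% of all genes were called. For Nfkb2 this averaged effect was 1.03 in MP525, 1.44 in MP567 and 1.02 in MP570. For Nfkbia it was -0.17 in MP525, 0.38 in MP567 and 0.05 in MP570. For Rela it was -0.53 in MP525, -0.49 in MP567 and -0.57 in MP570. Nfkbie had 1.36, 1.42 and 0.92 in the same order, and the lower value in MP570 did not pass the test (adjusted p = 0.444).

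**Figure D3:**
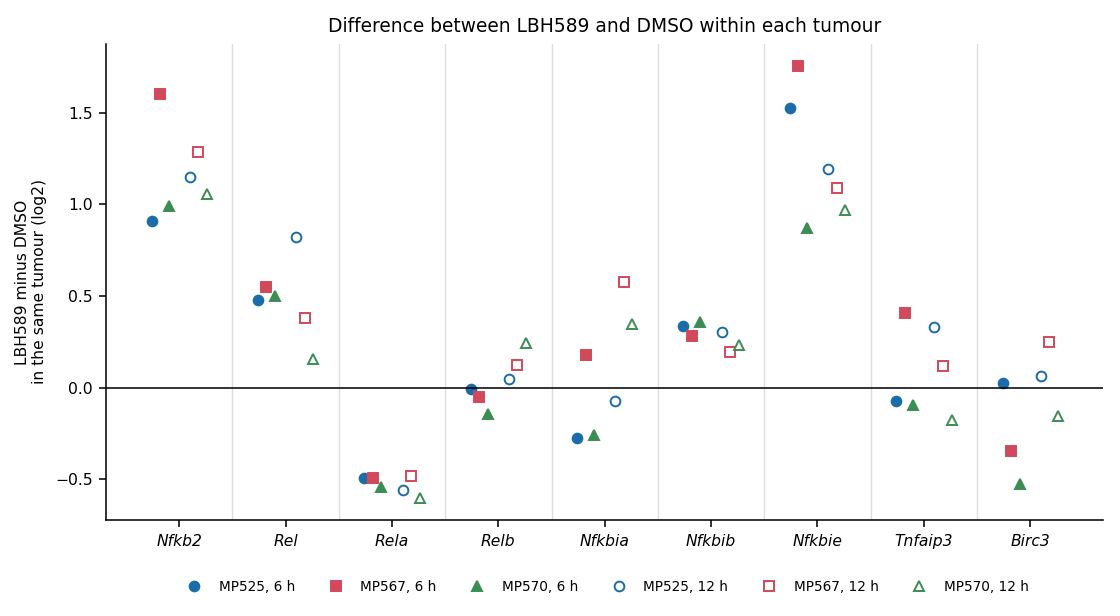
Difference between LBH589 and DMSO within each tumour (log2, vertical axis) for the 9 genes, with filled symbols for 6 h and open symbols for 12 h. Nfkb2, Rel, Nfkbib and Nfkbie lie above 0 in all 3 tumours at both times, Rela lies between -0.60 and -0.48, and Nfkbia, Tnfaip3 and Birc3 lie on both sides of 0.

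Other genes of the pathway did not all move one way. Of 23 tested IkB kinase and adaptor genes, 3 rose and 1 fell at 6 h (8 and 4 with the block), and 2 rose and 2 fell at 12 h (4 and 5). Called in either direction were 17.4% of the list at each time, against 15.8% and 18.2% of all genes, and with the block 52.2% and 39.1%, against 34% and 37.1%. Leaving out an array or tumour gave 1 to 4 calls at 6 h (1 without MP525 or MP570) and 1 to 5 at 12 h (1 without MP567 or MP570). Irak1, a kinase that relays signals of interleukin 1 and Toll-like receptors, fell by 0.96 at 6 h and by 1.19 at 12 h (limma adjusted p = 0.000817 and 0.000214), calls that no omission of an array or tumour ended. Map3k14 encodes NIK, the kinase that starts the processing of p100. It rose by 0.40 at 6 h and 0.52 at 12 h (0.0336 and 0.00892), to 8.18 ± 0.07 and 8.29 ± 0.21 with LBH589, against 7.77 ± 0.09 and 7.77 ± 0.08 with DMSO (SD, n = 3, limma). Its 6 h call was lost in 9 of 15 omissions of an array or tumour (highest adjusted p 0.199), and with quantile normalization (0.101) or arrays centred on their medians (0.0608), and its 12 h call without MP567 or MP570 (up to 0.122). The median log2 fold change of the list was 0.04 at 6 h and 0.00 at 12 h.

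Among 24 receptors and ligands that activate NF-kB, 0 genes were called at 6 h (1 higher and 1 lower with the block), and 3 rose and 3 fell at 12 h in either fit. The shares called were 0% at 6 h and 25% at 12 h, against 15.8% and 18.2% of all genes, and with the block 8.33% and 25%, against 34% and 37.1%. The 12 h count of 6 ranged from 0 to 6 over the omissions, with 0 without MP525 and 1 without the MP525 or MP567 array of DMSO 12 h, the MP570 array of LBH589 12 h or all of MP570. Il1b, an inflammatory cytokine, stood at 9.79 ± 0.53 with LBH589 at 12 h, against 8.41 ± 0.37 with DMSO, a difference of 1.37 ± 0.32 (limma adjusted p = 0.0117, n = 3). That call was lost without the DMSO 12 h array of MP570, or without MP525 or MP570 as a whole (up to 0.113). Tlr3, a sensor of double-stranded RNA, fell by 0.77 (0.0213), and Cd40, a receptor of the TNF family, rose by 0.58 (0.0311). These were lost in 6 and 7 of 15 omissions (up to 0.11 and 0.163).

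Of 17 other IkB proteins and brakes of the pathway, 2 rose and 1 fell at each time (3 and 2 with the block at 6 h, 5 and 2 at 12 h). Called in either direction were 17.6% at each time, against 15.8% and 18.2% of all genes, and with the block 29.4% and 41.2%, against 34% and 37.1%. Omissions gave 0 to 3 calls at 6 h (0 without MP525) and 1 to 3 at 12 h (1 without MP525 or MP570, or without the DMSO or LBH589 12 h array of MP525). Cyld, a deubiquitinase that opposes the kinase complex, rose to 9.13 ± 0.25 at 6 h with LBH589, against 8.25 ± 0.20 with DMSO (SD, n = 3), a difference of 0.88 (limma adjusted p = 0.00413, and 0.0739 without MP525). At 12 h it rose by 0.57 (0.0329), a call lost in 8 of 15 omissions (up to 0.25). Itch, a ubiquitin ligase that works with A20, fell by 0.83 at 12 h (0.00371, and 0.105 without MP570). Tnip2, an A20-binding protein, rose by 0.51 and 0.58 (0.0349 and 0.0171), calls lost in 7 and 6 of 15 omissions (up to 0.198 and 0.15). The 6 h call of Tnip2 was also lost with quantile normalization (0.0792) and with arrays centred on their medians (0.0643). The median of this list was 0.07 at 6 h and 0.18 at 12 h.

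Of 32 commonly cited NF-kB target genes, 3 rose and 1 fell at 6 h (9 and 2 with the block), and 6 rose and 2 fell at 12 h (15 and 2). The list was chosen with earlier results of these data known. Its shares beside those of all genes are thus a description and not an independent test. At 6 h 9.38% of the list was higher without the block and 28.1% with it, against 8.49% and 18% of all genes tested, and 3.12% and 6.25% were lower, against 7.31% and 16%. At 12 h 18.8% was higher without the block and 46.9% with it, against 9.13% and 18.6% of all genes, and 6.25% was lower in both fits, against 9.07% and 18.5%. Without the block, leaving out an array or tumour gave 1 to 6 calls at 6 h and 2 to 9 at 12 h. The 6 h count was 1 without the LBH589 6 h array of MP567 or without MP525 or MP570, and the 12 h count was 2 without MP570 and 3 without its LBH589 12 h array. The median log2 fold change of the list was 0.15 at 6 h and 0.28 at 12 h, and that of all genes was -0.02 and 0.01. Gadd45b, a stress-induced gene, rose by 1.77 and 1.80 (limma adjusted p = 0.00124 and 0.000891). Icam1, an adhesion molecule, rose by 1.05 at 12 h (0.000947), to 9.56 ± 0.09 with LBH589 against 8.50 ± 0.33 with DMSO (SD, n = 3). These calls of Gadd45b and Icam1 held in all 15 omissions. Within LBH589, 9 of the 32 target genes were higher at 12 h than at 6 h and 0 were lower with the block (28.1%, against 0.724% of all genes higher), and 0 were called without it. In DMSO 2 of 32 were higher at 12 h with the block (6.25%, against 0.22%), and the LBH589 effect was not shown to differ between the times for any of them in either limma fit. These time counts were not recomputed with arrays left out. Lcn2, which encodes the iron-binding protein lipocalin 2, rose by 1.39 at 12 h (0.0118), a call lost without the LBH589 12 h array of MP570 and without MP567 or MP570 (up to 0.21). Xiap, an inhibitor of caspases, fell by 0.64 at 12 h (0.00752), which was lost without MP567 or MP570 (up to 0.0991). Bcl2l1, which encodes the survival protein BCL-XL, fell by 0.45 at 6 h (0.0339), which was lost in 7 of 15 omissions (up to 0.204), and with arrays centred on their medians (0.0511) or on reference genes (0.0535).

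**Figure D4:**
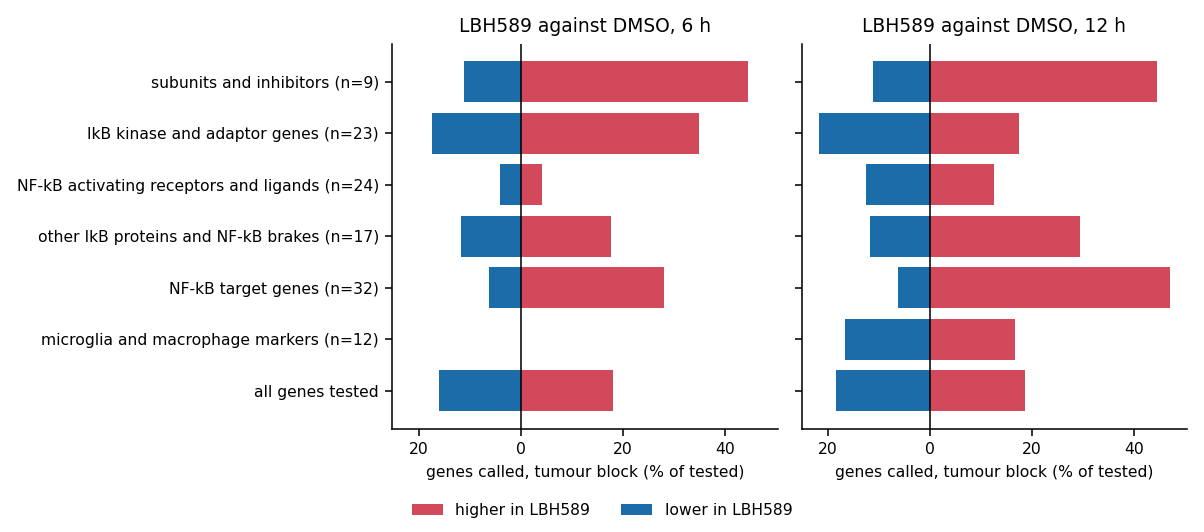
Share of tested genes called higher (right of 0) or lower (left of 0) in LBH589 than in DMSO at 6 h and 12 h, with the tumour blocked in the fit, for the 9 subunits and inhibitors, 4 lists of other pathway genes, microglia and macrophage markers, and all genes tested. At 12 h 46.9% of the NF-kB target genes were higher, against 18.6% of all genes, and 16.7% of the microglia and macrophage markers were higher and 16.7% lower. Not drawn are the endothelial and mural markers (50% of 8 higher at 12 h) and the astrocyte markers (40% of 5 higher, 20% lower). The lists were chosen with earlier results of these data known.

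Microglia and macrophages use NF-kB heavily and are not removed in NSG mice, so their markers were read beside these genes. Of 12 markers, 0 were called at 6 h in either fit, against 15.8% of all genes, and 34% with the block. At 12 h 1 rose and 0 fell (8.33% called, against 18.2% of all genes), and 2 rose and 2 fell with the block (33.3%, against 37.1%). The one that rose without the block was Cd68 (0.71, limma adjusted p = 0.0129), a lysosomal protein, and the call was lost without the DMSO 12 h array of MP525 and without MP525 or MP570 as a whole (up to 0.135). With the block alone, C1qb rose by 0.53 at 12 h (0.0112), and Ptprc and Itgam fell by 0.71 and 0.46 (0.0111 and 0.0314). The mean of the 12 markers ranged from 7.43 to 7.55 at 6 h and from 7.46 to 7.67 at 12 h on LBH589 arrays, against 7.48 to 7.56 and 7.32 to 7.80 on DMSO arrays, so the groups overlapped. Their signals summed on the linear scale ranged from 2430 to 2846 at 6 h and 2498 to 3024 at 12 h with LBH589, against 2413 to 2671 and 2173 to 2913 with DMSO. Of the 12 markers, 11 lay above the 25th percentile on all 12 arrays and 5 (Cx3cr1, Cd68, C1qa, C1qb and Tyrobp) above the median on all 12. Ptprc, which encodes the pan-leukocyte protein CD45, lay above the 25th percentile on 6 of 12 arrays, and Aif1 and P2ry12 lay above the array median on none. Of 8 endothelial and mural markers, 1 rose at each time and 0 fell (12.5% higher, against 8.49% of all genes at 6 h and 9.13% at 12 h). With the block 1 rose at 6 h (12.5%, against 18%) and 4 at 12 h (50%, against 18.6% of all genes). Kdr, a receptor for VEGF, rose by 0.81 and 0.71 (limma adjusted p = 0.0105 and 0.0173), calls lost in 2 and 4 of 15 omissions (up to 0.117), and Pecam1, Cldn5 and Rgs5 were called at 12 h with the block alone (0.0489, 0.00453 and 0.00972). Of 5 astrocyte markers, 1 rose at each time and 0 fell (20% higher, against 8.49% of all genes at 6 h and 9.13% at 12 h). With the block 1 rose and 1 fell at 6 h (20% each, against 18% and 16%). At 12 h 2 rose and 1 fell with the block (40% and 20%, against 18.6% and 18.5% of all genes). Aldoc, a glycolytic enzyme, rose by 1.11 and 1.40 (0.0207 and 0.00537), the 6 h call being lost in 5 of 15 omissions (up to 0.119). With the block alone, Gfap rose by 0.42 at 12 h (0.0126), and Slc1a3, a glutamate transporter, fell by 0.35 at 6 h and by 0.39 at 12 h (0.0189 and 0.00963). Of 6 fibroblast markers 0 were called without the block, against 15.8% of all genes at 6 h and 18.2% at 12 h. With the block 0 were called at 6 h (against 34%), and 1 rose and 1 fell at 12 h (33.3%, against 37.1% of all genes). Of 4 oligodendrocyte markers 0 were called in either limma fit, against the same shares of all genes. Fewer cells of a type and less RNA per cell cannot be told apart in such bulk samples, and the part of these cell types in the 12 h values of Nfkb2, Nfkbie, Il1b, Lcn2 and Icam1 was not tested.

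The genes whose values followed Nfkb2 most closely over the 12 arrays were Micall2 (Pearson r = 0.986), Nrip3 (0.983) and 2510039O18Rik (0.983), and those closest to Nfkbie were Cdc42ep2 (0.982), Micall2 (0.971) and Nfkb2 itself (0.971). These are descriptions over arrays that share the same treatments and tumours, and a gene with a steady response to LBH589 scores high for that reason alone.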

How the data were processed

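Total RNA of 12 cultures was labelled with whole-transcript kits for GeneChip arrays, per the labels' protocols. The authors deposited log2 values per probe set, with the log base read from their range (1.50 to 14.5). The sources used here do not say how they were summarised or scaled. Agilent Feature Extraction (10.7.3.1), written for another kind of array, is the sole tool in the submitters' processing notes. Precision is limited by 3 arrays per group.

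Of 41345 probe sets, 23521 named 1 gene and were used. The brightest per gene was kept. Genes above the array's 25th percentile on at least 3 arrays were tested. The 4 group means were fitted with limma 3.58.1 in R 4.3.3 (trended eBayes, two-sided, Benjamini-Hochberg over 18652 genes), without further normalization. The scripts were tested on simulated data.

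Arrays of the same tumour, which the labels name, deviated together from the means of their groups (18 pairs, r = 0.450 to 0.805). For other tumours and groups r was -0.51 to -0.0577. Deviations within a group add up to 0, so these negative values follow in part from the centring and are no separate comparison. The blocked fit, an alternative, is given for each list count and where it changes a call of the 9 genes. Members, lists and the naming rule were chosen with earlier results of these data known. The rule allowed up to 5 called genes per list to be named, those of smallest adjusted p, and not all of them are named. Those left out include genes called higher (Traf6, Bcl10, Plau and Cxcl2) and genes called lower (Tab2, Nkrf and Tlr1). Some markers called with the block alone are named as well. Tests of LBH589 with the block under other scalings and omissions were added after seeing the data. Promoter sequences are RefSeq's. Genes of like pattern are the 3 highest correlations with each gene called at 6 h or 12 h.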

Additional observations from a re-analysis of the deposited data

How the results depend on the processing

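With the tumour as a fixed replicate block, 5 of the 9 genes were called at 6 h and 5 at 12 h, against 2 and 2 without it, and a random block gave 5 and 5. Over all genes, the fixed block called 6333 at 6 h and 6928 at 12 h and the random block 5493 and 6087, against 2948 and 3395. Leaving out 1 array or tumour gave 1 to 3 calls among the 9 genes at 6 h and 2 to 3 at 12 h. Over all genes these omissions gave as few as 1810 calls at 6 h without 1 array, and 893 at 6 h and 1264 at 12 h without 1 tumour. Omitting a tumour leaves fewer samples in the fit. Centring on reference genes split the 12 h calls into 2342 higher and 1269 lower, against 1703 and 1692 in the deposited scaling. Of the 9 reference genes, 3 were themselves called lower with LBH589 at 12 h in the main fit (33.3%, against 9.07% of all genes). Calls gained under this centring therefore carry that upward move of LBH589 values. Differences that were never called without the block changed sign in some omissions. Over the omissions at 6 h Nfkbia ranged from -0.50 to 0.12 and Tnfaip3 from -0.086 to 0.21. At 12 h Nfkbia ranged from -0.083 to 0.51, Tnfaip3 from -0.030 to 0.22 and Birc3 from -0.046 to 0.16. The cause was not tested. Of 450 recomputed drug effects of the 9 genes, 415 kept their direction and side of the threshold, 23 gained a call, 2 lost it and 10 changed sign. Only Nfkb2 and Nfkbie were called in the main fit, so most of the 415 were effects that stayed uncalled. Each of the 9 genes had 1 probe set, so the alternatives on probe sets could not change its values. Leaving out an array of the other time could not change its log2 fold change. The count of 415 is therefore no measure of robustness. The block changed no call of the time comparisons, which stayed at 0 of 9 under every alternative run. The calls for tumour level ranged from 3 to 5 of 9 without single arrays.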
